A study of Mus musculus with 2 samples.

Results

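Mitochondrial protein import genes were described in long-read RNA-seq of gastrocnemius, a fast hindlimb muscle. Members were coding genes of the annotation whose symbol begins with Timm or Tomm, together with Pam16, Dnlz, the Grpel genes, Samm50 and the metaxins Mtx1, Mtx2 and Mtx3. The annotation holds 34 such genes, and 31 of them had reads, out of 14451 annotated genes with reads. The 2 libraries form 1 group: female B6CASTF1/J mice, an F1 cross of C57BL/6 and CAST, aged 18 to 20 months, each library begun with 2 µg of RNA. The series has no other condition, so levels and isoforms were described, and the libraries, called replicate 1 and replicate 2, were compared only with each other. The labels number them as biological replicates 1 and 2. Both carry the same donor record, however, and the labels do not say whether the RNA came from separate animals. A p-value therefore speaks of these libraries alone, and their difference may be biological or technical.

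Most mitochondrial proteins are made in the cytosol and enter through the TOM complex of the outer membrane. The SAM complex then builds barrel proteins into that membrane, small TIM chaperones carry hydrophobic proteins across the space between the membranes, the TIM23 channel and its motor draw proteins with a targeting sequence inward, and TIM22 places carrier proteins in the inner membrane. Skeletal muscle depends on this route for the respiratory enzymes of its fibres.

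Annotated genes took 1117891 reads in replicate 1 and 975696 in replicate 2, and levels are given as counts per 1000000 of these reads (CPM). Each read is a single cDNA of any length, so CPM was not divided by length. A gene with 0 reads may have been present at up to 2.68 CPM in replicate 1 and 3.07 in replicate 2 (3 reads, counting error only). The 6 fibre markers, among them Acta1 and Ckm, summed to 304262 and 336877 CPM. Slow fibre markers differed between the libraries, at 771 CPM in replicate 1 and 5481 in replicate 2. All 4 endothelial markers had reads (59.0 and 37.9 CPM in sum), as did all 5 fibroblast markers (325 and 451) and 3 of 4 macrophage markers (39.4 and 8.20, Cd68 at 0), and the part of these cell types in the member levels was not tested.

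Small TIM chaperones are short proteins with paired cysteines, and the coding sequences of the 6 small TIM genes with reads are shown because the isoforms of Timm10b differ in this stretch. Each line runs from the first pair of cysteine codons (TGT or TGC) to the last in the leading annotated transcript, with those codons in capitals (GENCODE M21 transcripts, mm10).
Timm8b, chromosome 9: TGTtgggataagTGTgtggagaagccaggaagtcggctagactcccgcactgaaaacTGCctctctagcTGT
Timm8a1, chromosome X: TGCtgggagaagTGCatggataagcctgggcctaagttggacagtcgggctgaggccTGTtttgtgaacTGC
Timm13, chromosome 10: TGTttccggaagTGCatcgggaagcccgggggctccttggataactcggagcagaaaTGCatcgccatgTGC
Timm9, chromosome 12: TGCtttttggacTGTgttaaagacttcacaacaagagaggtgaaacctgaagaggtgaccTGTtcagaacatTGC
Timm10, chromosome 2: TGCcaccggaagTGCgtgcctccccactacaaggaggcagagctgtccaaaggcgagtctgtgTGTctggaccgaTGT
Timm10b, chromosome 7: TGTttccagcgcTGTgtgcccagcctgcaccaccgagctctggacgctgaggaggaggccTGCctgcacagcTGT
Each of the 6 holds 2 such pairs, with 3 codons inside a pair. Between the pairs lie 14 codons in Timm8b, Timm8a1 and Timm13, 15 in Timm9 and Timm10b and 16 in Timm10.

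Exons that some isoforms left out are shown next, all within the coding region of the named transcript. They are Dnlz exon 2, at chr2:26351335-26351474 on the minus strand (140 bases), Timm10b exon 2, at chr7:105640762-105640857 on the plus strand (96 bases, its cysteine codons in capitals), and the end of Timm13 exon 1, at chr10:80900624-80900668 on the minus strand (45 bases).
Dnlz exon 2: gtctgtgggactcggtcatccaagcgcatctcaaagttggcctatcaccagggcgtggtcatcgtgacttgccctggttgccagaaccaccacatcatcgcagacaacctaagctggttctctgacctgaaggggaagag
Timm10b exon 2: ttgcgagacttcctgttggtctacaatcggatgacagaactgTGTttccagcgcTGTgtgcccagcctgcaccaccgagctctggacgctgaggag
Timm13 exon 1 end: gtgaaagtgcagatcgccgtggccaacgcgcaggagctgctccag

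The import genes together held 2618 reads in replicate 1 and 1963 in replicate 2, or 2342 and 2012 CPM (2177 ± 233, SD, n = 2). All 31 members with reads were found in both libraries. Their levels spanned from 313 CPM for Timm23 to 3.39 CPM for Timmdc1, and the 10 members with the highest mean CPM took 68.6% ± 0.0417 (SD, n = 2) of the member reads. The median member held 90.0 reads over both libraries, against 15.0 for all genes with reads.

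The TOM group, the outer membrane entry complex with the cytosolic Tomm34 counted in, held 647 CPM in replicate 1 and 550 in replicate 2. That was 27.5% ± 0.184 (SD, n = 2) of the member reads. Tomm20, a receptor for targeting sequences, led the group with 205 and 166 reads, or 183 and 170 CPM. Tomm40, the barrel through which proteins pass, had 125 and 92 reads (112 and 94.3 CPM). The other receptors were lower, Tomm70a with 68 and 65 reads (60.8 and 66.6 CPM) and Tomm22 with 49 and 36 reads (43.8 and 36.9 CPM).

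The small TOM subunits, which stabilise the complex, were uneven. Tomm7 had 99 and 63 reads (88.6 and 64.6 CPM), and Tomm6, at chr17:47686646-47688386, had 106 and 53 (94.8 and 54.3 CPM). The antisense gene Tomm6os had 0 reads, and Gm21981, a coding gene that overlaps Tomm6 on the same strand, had 1 and 0. Tomm5 had 34 and 23 reads, so that in both libraries it lay under the other two. Tomm34, a cytosolic co-chaperone that the symbol pattern takes in, had 10 and 12 reads. Tomm20l, a paralogue of Tomm20, had 0 reads in either library.

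The SAM complex was the group with the fewest reads among the membrane complexes, at 123 and 93.3 CPM. Samm50, its barrel subunit, held most of them with 109 and 60 reads (97.5 and 61.5 CPM), Mtx2 had 19 and 18 and Mtx1 had 10 and 13. Mtx3, the other metaxin, had 0 reads in both libraries.

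The TIM23 channel group held 662 and 563 CPM, 28.1% ± 0.211 (SD, n = 2) of the member reads. Timm23, the channel protein of the inner membrane at chr14:32180162-32201898, was the most abundant member in both libraries, with 399 reads in replicate 1 (357 CPM, exact Poisson 95% interval 323 to 394) and 263 in replicate 2 (270 CPM, 238 to 304). Timm17a, its partner in the channel, had 199 and 161 reads (178 and 165 CPM). Timm50, the receptor that faces the space between the membranes, had 81 and 79 reads (72.5 and 81.0 CPM). Timm17b had 36 and 19 reads, and Timm21, which in yeast links the channel to TOM, had 25 and 27.

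The import motor held 335 and 285 CPM. Grpel1, a nucleotide exchange factor of the mitochondrial Hsp70, led it with 168 and 101 reads (150 and 104 CPM). Dnlz, a zinc-finger protein that keeps that Hsp70 soluble, had 73 and 79 reads (65.3 and 81.0 CPM). Pam16, a J-like regulator of the motor, had 61 and 45 reads, Timm44, which tethers Hsp70 to the channel, had 51 and 39, and Grpel2 had 21 and 14.

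The larger part of the TIM22 group was Timm29, known in human cells as a subunit of the carrier translocase, with 189 and 191 reads (169 and 196 CPM). Timm22, the channel protein of the same complex, had 40 and 27 reads (35.8 and 27.7 CPM). Timm29 was thus above Timm22 in both libraries with no overlap of their ranges.

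The small TIM chaperones held 368 and 293 CPM. Timm8b with 165 and 119 reads (148 and 122 CPM) and Timm13 with 158 and 115 (141 and 118 CPM) stood well above the rest. Timm10b, associated with TIM22, had 51 and 32 reads. Timm9 and Timm10, which form the carrier chaperone together, were low, at 19 and 6 reads and at 10 and 9 reads. Timm8a1 had 8 and 5 reads (7.16 CPM, exact Poisson 95% interval 3.09 to 14.1, and 5.12 CPM, 1.66 to 12.0), and Timm8a2 had 0 in both. Timmdc1, an assembly factor of respiratory complex I in human cells that shares the symbol's first letters, was the only member with reads under 10 in all, at 3 and 4 (2.68 and 4.10 CPM).

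**Figure D1:**
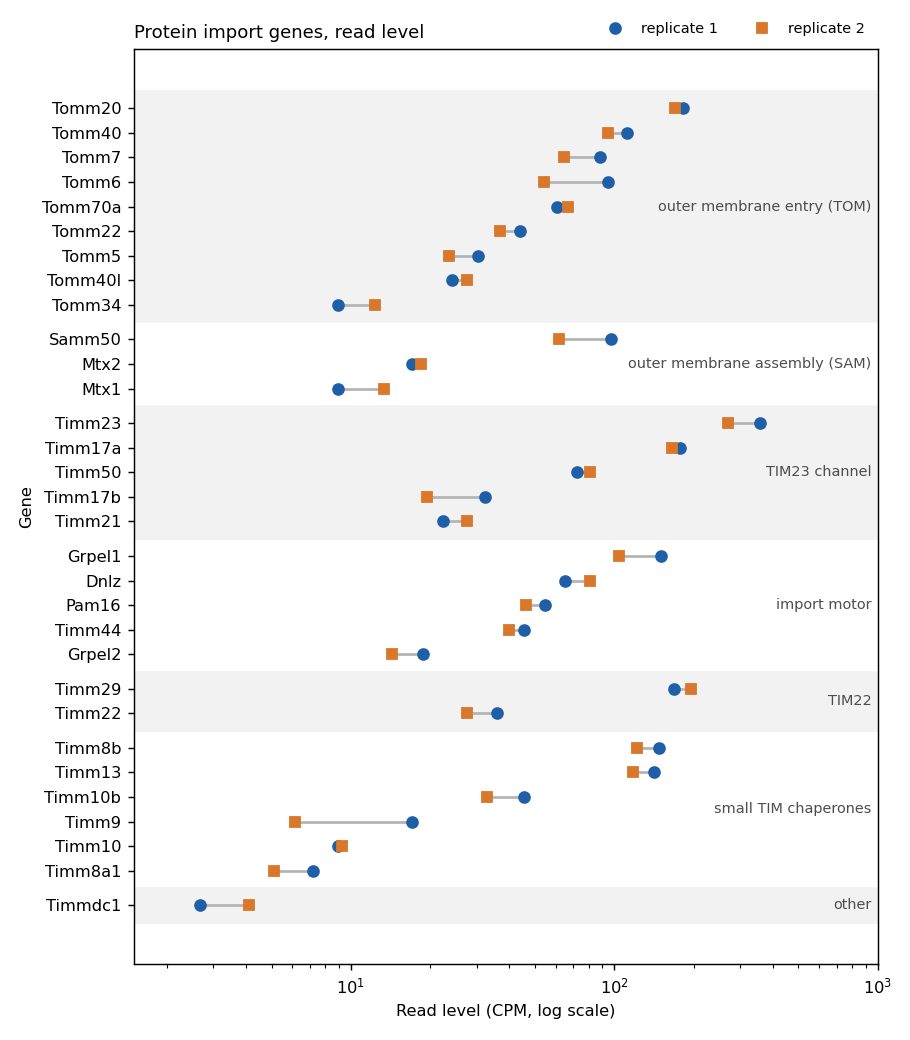
Read level in CPM on a log axis for the 31 members with reads, grouped by role; circles are replicate 1, squares are replicate 2 and the grey line joins them. Timm23 was highest in both libraries (357 and 270 CPM) and Timmdc1 lowest (2.68 and 4.10 CPM).

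In the order of mean CPM, 7 of the 30 pairs of neighbours had ranges over the libraries that did not meet, and 23 overlapped. Timm23 stood apart from Timm29, the next member. Timm29, Tomm20 and Timm17a followed with overlapping ranges and were set apart from Timm8b. From Timm8b through Timm13, Grpel1, Tomm40, Samm50, Timm50, Tomm7, Tomm6, Dnlz and Tomm70a every neighbour overlapped, and further gaps lay on either side of Pam16, between Timm21 and Mtx2, and around Timm8a1. These ranges span the CPM values of the libraries and leave out counting error. In replicate 1, the exact Poisson intervals of Timm23 and Timm29 did not meet (323 to 394 and 146 to 195 CPM). Nor did they in replicate 2 (238 to 304 and 169 to 226 CPM). At every other gap the intervals of the neighbours overlapped in both libraries, so the order there stays uncertain.

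In each of 6 pairs of paralogues a single gene held most reads in both libraries. Timm17b took 36 of 235 pair reads in replicate 1 (15.3%, Wilson 95% interval 11.3 to 20.5) and 19 of 180 in replicate 2 (10.6%, 6.86 to 15.9), the rest being Timm17a. Tomm40l took 17.8% (12.5 to 24.6) and 22.7% (16.1 to 31.0) beside Tomm40. Grpel2 took 11.1% (7.38 to 16.4) and 12.2% (7.39 to 19.4) beside Grpel1. Timm8a1 took 4.62% (2.36 to 8.86) and 4.03% (1.73 to 9.09) beside Timm8b.

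Tomm20l had 0 of 205 and 0 of 166 reads beside Tomm20, which allows a share of up to 1.46% and 1.81%. Mtx3 had 0 of 10 and 0 of 13 beside Mtx1, which allows up to 30.0% and 23.1%, so a sizeable Mtx3 share was not excluded at this depth. No pair differed between the libraries by Fisher's exact test (2-sided, lowest raw p = 0.189, all adjusted p = 1.00 over 6 pairs). These tests had few reads of the minor gene, and do not show that the shares were equal.

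Between the libraries, 1 of the 30 members tested (3.33%) was called, against 11.7% of all 8394 genes with at least 10 reads. The test was a 2-sided exact binomial test against TMM-scaled library sizes, adjusted by Benjamini-Hochberg over all genes, which knows counting error only. The called member was Tomm6, higher in replicate 1 (4.61% of all genes were called in that direction and 7.06% in the other), by 0.69 on the log2 scale (95% interval 0.20 to 1.19, adjusted p = 0.0375, exact binomial). At an unadjusted p under 0.05 there were 6 members, against 22.5% of all genes. Besides Tomm6, they were Timm23 (0.29), Samm50 (0.55), Grpel1 (0.42), Timm9 (1.35) and, higher in replicate 2, Timm29 (-0.33), as log2 of replicate 1 over replicate 2.

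The median log2 ratio of the tested members was 0.13, against 0.00 for all tested genes, with 18 members above 0 and 12 below. Without TMM scaling, on total reads, 4 of 30 members and 1038 of all 8394 genes were called, and the members' median was 0.25. The ratio moved with annotated length over all genes: the median was 0.37 for 982 genes whose leading model was under 1000 bases and -0.05 for the other 7412. Members had a median length of 1856 bases, from 518 for Timm8b to 7280 for Timm17a, and the leading model of Tomm6 has 749. With a trend on length in place of TMM scaling, the members' median turned to -0.03, and the log2 ratio of Tomm6 was 0.36 (adjusted p = 0.489, exact binomial). In that setting Grpel1 (0.61), Samm50 (0.89) and Timm17a (0.45) were called instead, each higher in replicate 1. These were 3 of 30 members, against 705 of all 8394 genes called in the same setting. For edgeR's exact test, the dispersion was estimated from the same libraries as 1 group. It therefore includes the difference under test, so few calls follow from the setting itself. With the scatter between the libraries taken as a common dispersion of 0.0622 in edgeR's exact test, 0 members and 24 of all genes were called, against 1 and 980 by the binomial test. At an unadjusted p under 0.05, edgeR's test gave 0 members and 311 of all genes.

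**Figure D2:**
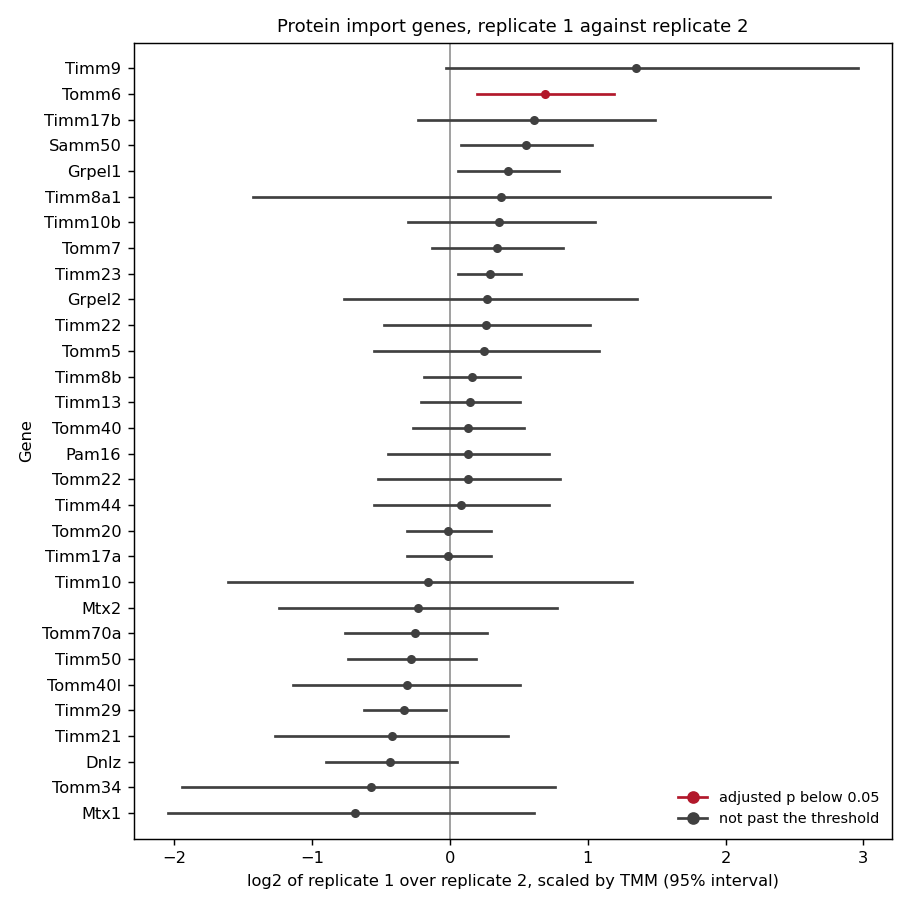
Log2 of replicate 1 over replicate 2 after TMM scaling for the 30 tested members, with exact 95% intervals that cover counting error only. Tomm6, in red at 0.69, was the only member past the threshold, and the intervals were widest for members with few reads such as Timm9 and Timm8a1.

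Other genes of the pathway, a list of 33 whose proteins process, fold or guard imported proteins or shape the inner membrane, summed to 3428 and 3287 CPM. Of 32 tested, 3 were called higher in replicate 1, 3 higher in replicate 2 and 26 were not called, or 18.8% called against 11.7% of all genes. Their median log2 ratio was 0.01. Hspa9, the mitochondrial Hsp70 that the motor members serve, was the most abundant with 361 and 379 reads (323 and 388 CPM) and was higher in replicate 2 by 1.30-fold (95% interval 1.12 to 1.51, adjusted p = 0.00496, exact binomial). Hspd1, the folding chaperonin, was likewise higher in replicate 2 (272 and 280 reads), as was the inner membrane protease Afg3l2 (146 and 165 reads).

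Called higher in replicate 1 were Romo1, a small protein of the inner membrane (209 and 94 reads), Apoo, a subunit of the complex that shapes cristae (80 and 29 reads), and the prohibitin-like Stoml2 (164 and 88 reads). Pmpca, a subunit of the peptidase that removes targeting sequences, had 250 and 225 reads, whereas its partner Pmpcb had 44 and 47. Dnajc19, the J-protein that pairs with Pam16, had 122 and 98 reads, with a scaled log2 ratio of 0.00 (95% interval -0.39 to 0.40). Chchd4 and Gfer, the oxidising relay that folds small TIM proteins, had 57 and 58 reads and 63 and 30 reads.

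Each transcript model carries a class. Known models have an annotated intron chain, ISM models match a part of such a chain, NIC models combine annotated splice sites in an unannotated way, NNC models have at least 1 unannotated splice site, and Genomic models overlap a gene in other ways. Known models took 90.5% of member reads in replicate 1 (Wilson 95% interval 89.3 to 91.6) and 90.9% in replicate 2 (89.5 to 92.1), against 63.6% and 59.3% for all annotated genes. NNC models took 2.10% and 3.01% of member reads, against 17.9% and 21.5%. Totals over all genes are weighted by the most abundant muscle genes, so the share was also taken per gene. It had a median of 91.9% over 30 members and 75.5% over 8394 genes, both with at least 10 reads. Over 80% of reads were Known in 21 of the 30, a count not taken over all genes. The lowest member was Timm9 at 48.0% of 25 reads, and the highest was Tomm34 at 100% of 22.

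A read was counted as holding the coding region where its model spanned a complete annotated coding region with the same introns inside it. This was so for 2365 of 2618 member reads in replicate 1 (90.3%, 89.1 to 91.4) and 1778 of 1963 in replicate 2 (90.6%, 89.2 to 91.8), against 67.6% and 63.5% for all coding genes. Per gene the median was 90.8% over 30 members and 79.2% over 8034 coding genes. Known models carry annotated ends, so a read cut short within an outer exon is not seen as short, and members are also shorter than the median gene (1856 against 2616 bases). The part of length in this difference was not tested.

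The lowest shares were those of Dnlz, at 57.5% (46.1 to 68.2) and 63.3% (52.3 to 73.1), and Samm50, at 62.4% (53.0 to 70.9) and 66.7% (54.1 to 77.3). Tomm40l followed at 63.0% and 74.1% and Timm22 at 70.0% and 66.7%. At the other end, Timm23 stood at 97.2% and 97.3%, Timm8b at 97.0% and 98.3%, Tomm20 at 99.0% and 98.2%, and Tomm6 at 100% and 96.2%.

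**Figure D3:**
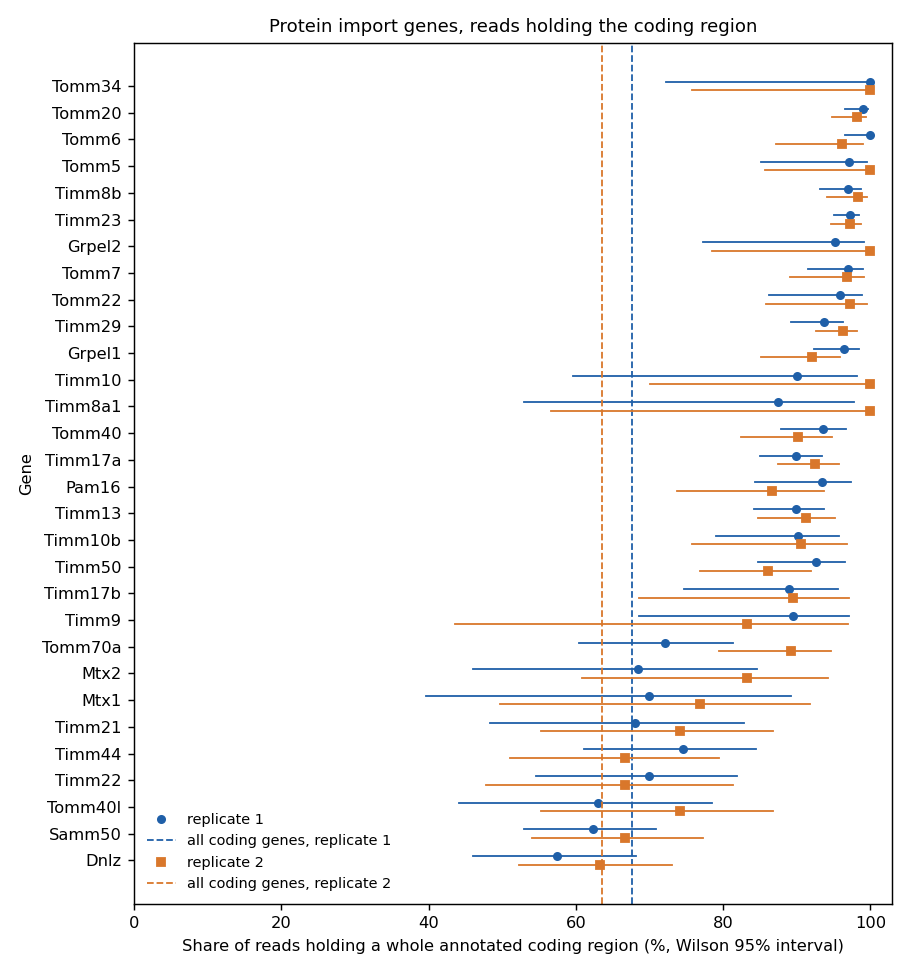
Share of reads holding a complete annotated coding region for the 30 members with at least 10 reads, per library with Wilson 95% intervals; dashed lines mark all coding genes (67.6% in replicate 1, 63.5% in replicate 2). Dnlz (57.5% and 63.3%) and Samm50 (62.4% and 66.7%) were lowest.

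For Samm50, many reads without the coding region shared an unannotated 3′ end. Models outside the Known class that ended at chr15 position 84214303, which is 2964 bases before the annotated end, held 37 reads in replicate 1 and 18 in replicate 2. Of these, 28 and 16 belonged to a single-exon ISM model of 178 bases. Among Known, NIC and NNC reads, by contrast, Samm50-201 took 68 of 69 and 40 of 41. Unannotated ends shared by both libraries also lay 3182 bases before the end of Tomm40l (6 and 11 reads), 3445 before that of Tomm70a (9 and 3 reads), 2384 before that of Grpel1 (5 and 5 reads) and 6025 before that of Timm17a (6 and 4 reads). In Dnlz such an end, 2151 bases before the annotated end, belonged to models with 1 read in replicate 1 and 13 in replicate 2. The 13 include 11 reads of an unannotated chain whose 13 reads in replicate 1 lay in a model with the annotated end. All reads of a model were counted at its end, so this contrast is not a measured difference in end use. The origin of these ends was not tested.

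Among Known, NIC and NNC reads, the leading isoform was a Known coding transcript for all 31 members, a count not taken over all genes. Of the 20 members with at least 20 Known, NIC or NNC reads in each library, 0 were called between libraries in the share of this isoform (Fisher's exact test, Benjamini-Hochberg over 3521 genes), against 0.483% of all genes. At an unadjusted p under 0.05 the count was also 0 of 20, against 177 of 3521 genes. The smallest member p was 0.147 (Fisher's exact test), for Tomm5, whose leading share was 97.0% in replicate 1 and 82.6% in replicate 2. With so few members and reads, these counts do not show that the shares were equal. The median share of the leading isoform was 96.8% and 94.9% for members and 90.0% and 89.9% for all genes tested. It exceeded 90% in both libraries for 11 of 20 members (55.0%) and for 43.3% of all genes. Grpel1, Tomm7 and Timm29 stood at 100% in both, with 162 and 93, 96 and 61, and 177 and 184 reads.

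Dnlz had a Known isoform without a coding region and a frequent unannotated chain. Among its Known, NIC and NNC reads, Dnlz-201, which encodes the protein, took 42 of 68 reads in replicate 1 (61.8%, Wilson 95% interval 49.9 to 72.4) and 50 of 74 in replicate 2 (67.6%, 56.3 to 77.1). Dnlz-202, annotated without a coding region, joins exon 1 to exon 3 and so lacks the 140 bases printed above. It took 12 and 11 reads (17.6% and 14.9%). An unannotated chain of 3 exons took 13 and 11 reads (19.1%, 11.5 to 30.0, and 14.9%, 8.51 to 24.7). Its first intron, chr2:26351479-26351772, ends 4 bases earlier than the annotated intron at chr2:26351475-26351772, so that exon 2 was 144 bases. Neither the loss of 140 bases nor the gain of 4 is a multiple of 3. All 3 chains were found in both libraries.

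Timm10b was the tested member with the lowest leading share. Timm10b-203 took 26 of 51 reads (51.0%) and 19 of 32 (59.4%). Timm10b-210, annotated as coding, took 14 (27.5%) and 5 (15.6%). It lacks the 96-base exon 2 printed above, a multiple of 3 that holds the first of the 2 cysteine codon pairs. Timm10b-201, with the same coding region as Timm10b-203, took 4 and 2 reads. Gm45799, an overlapping gene on the same strand that shares 82.4% of its 21-base words with Timm10b, had 1 and 2 reads. Reads can be split between both genes, and how far the Timm10b counts depend on this was not tested.

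**Figure D4:**
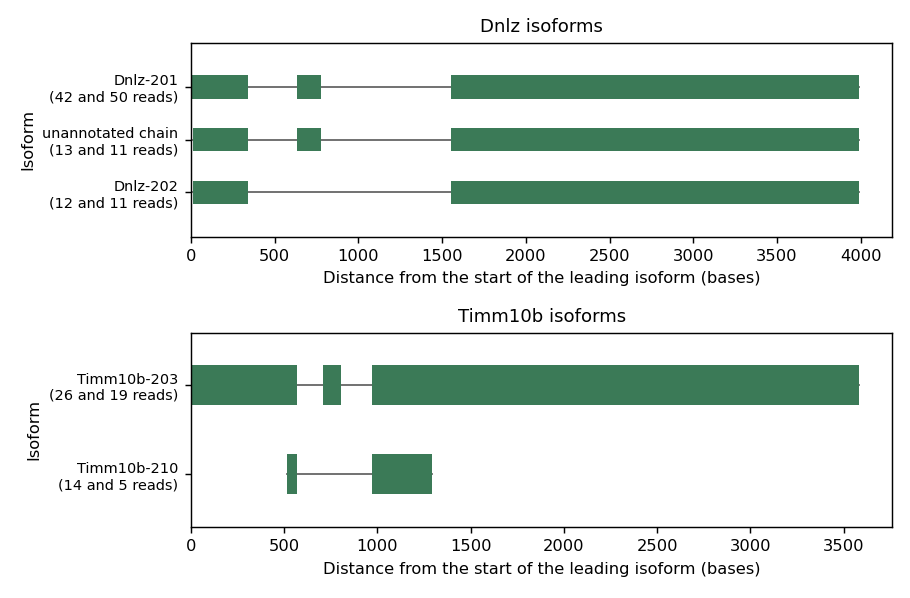
Exon structures of 3 Dnlz chains and 2 Timm10b isoforms, in bases from the start of the leading isoform; boxes are exons, lines are introns and the labels give reads in replicate 1 and replicate 2. Dnlz-202 and Timm10b-210 lack exon 2, and the 4-base extension of the unannotated Dnlz chain is too short to see at this scale. That chain is drawn with the ends of its replicate 1 model. Its replicate 2 model ended 2151 bases before the annotated end.

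Smaller variants of the coding region recurred in several members. Timm13-204, whose first exon lacks the 45 bases printed above and which leaves both cysteine codon pairs in place downstream, took 4 and 5 reads beside 138 and 100 of Timm13-201. Timm22-203, a partial annotation without the 197-base exon 2 at chr11:76409642-76409838, took 3 and 4 beside 27 and 18. Tomm5-202, with a 50-base exon at chr4:45106839-45106888 added, took 1 of 33 reads and 4 of 23. Pam16 had an unannotated chain without its 85-base exon 2, at chr16:4617919-4618003, in 1 and 2 reads.

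In Tomm40 and Tomm6 the main isoforms differed outside the coding region. Tomm40-202, with an intron in the leader, took 105 and 72 reads, and Tomm40-201, without that intron, took 9 and 6. Tomm6-202 took 91 and 45 reads and Tomm6-201 took 12 and 6, and both had more reads in replicate 1.

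After that of Dnlz, the unannotated NIC or NNC chains seen in both libraries with the most reads belonged to Tomm40l, Mtx2, Timm10b, Timm17a and Timm21, the last 3 tied at 5 reads. The Tomm40l chain, in 3 and 5 reads, changes the first intron within the leader and keeps the coding region. The Mtx2 chain, in 4 of 18 and 2 of 18 reads, adds an 84-base exon at chr2:74862968-74863051, a multiple of 3, between coding exons. The Timm10b chain, in 3 and 2 reads, removes 2150 bases of the last exon, including the end of the coding region. The Timm17a chain, in 2 and 3 reads, and the Timm21 chain, in 1 and 4 reads, remove 1279 and 344 bases of the last exon and keep the coding region.

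Some members have near copies among which reads can be split. Of the annotated genes, 15 shared over 50% of their 21-base words with 10 members, and 6 of these had reads, 27 in replicate 1 and 16 in replicate 2. Gm9803, a copy of Pam16 sharing 94.7% of its words, had 12 and 6 reads beside 61 and 45 of Pam16. Gm10273 (5 and 3 reads) and Gm10171 (2 and 3 reads) are copies of Timm23, Gm14494 of Tomm20 (5 and 2 reads) and Gm9797 of Timm8a1 (2 and 0 reads). The levels of Pam16 and Timm8a1, where the copies' reads are a larger part, are therefore uncertain.

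Promoters are shown for what the members share beyond the rule. RefSeq windows on GRCm38.p6, from 250 bases before to 50 after the start, were matched for 30 of the 34 genes, Grpel2, Timm21, Tomm40l and Tomm7 not being in the table. Letters bound by ETS factors, CCGGAAGT on either strand, were in 9 of 30 member windows (30.0%) and in 5.69% of the windows of 17492 coding genes. The 9 include Mtx3 and Timm8a2, which had 0 reads in both libraries. Coding genes were taken with or without reads, and a share among genes with reads was not taken. The motif of the nuclear respiratory factor NRF1 was in 3 of 30 against 7.17%. Those of YY1, AAGATGGCG, were in 3 of 30 against 2.14%. GGGCGG was in 17 of 30 (56.7%) against 49.2%, CCAAT in 9 of 30 (30.0%) against 42.3% and TATAAA in 2 of 30 (6.67%) against 14.8%. Motifs were searched separately on both strands, so matches of different motifs may overlap, and a match is a run of letters, not a bound site.
The windows of the most abundant members with an ETS or NRF1 match follow, on the gene's strand with the match in capitals: Timm23 at chr14:32201923-32201948, Timm29 at chr9:21592500-21592525, Tomm70a at chr16:57121625-57121650, Tomm20 at chr8:126945923-126945950, Timm8b at chr9:50603910-50603937 and Pam16 at chr16:4624943-4624970.
Timm23, ETS: gcgcttcccACTTCCGGgccgcacac
Timm29, ETS: gctctgaccACTTCCGGgctccactc
Tomm70a, ETS: cttctgaccCCGGAAGTggttctccc
Tomm20, NRF1: ggtccatctGCGCGTGCGCaccaggcgt
Timm8b, NRF1: gctgccaccGCGCGTGCGCaccccagcg
Pam16, NRF1: cgcgtccttGCGCACGCGCtctccggtc
The match began 48 bases before the start in Timm23 and 20 before it in Tomm20, and 18 bases after the start in Timm8b. In Timm29 it lay 213 bases before the start.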

How the data were processed

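Long-read RNA-seq of 2 gastrocnemius libraries was analysed. The authors deposited raw counts of reads per transcript model, 1 table per library, listing models with at least 1 read, with the number of exons and length of each model, and, per the file headers, models of GENCODE M21 on mm10 plus models added by TALON. The aligner's name is not given in the sources used for this work. The members, the gene lists and the rule for the genes named (all members, with full values for the 10 highest, those called and those under 10 reads, paralogue pairs and the leading unannotated chains) were chosen with earlier results of these data known.

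Reads of all models of an annotated gene were summed, and CPM was taken over all reads of such genes without spike-ins. Genes holding 10 or more reads in the libraries together were compared by a 2-sided exact binomial test against TMM effective library sizes (edgeR 4.0.16, R 4.3.3, factors 1.04 and 0.961), with a threshold of 0.05. A quasi-likelihood fit has no residual degrees of freedom with 1 library per side. Models were matched between libraries by intron chain. Shares of the leading isoform were compared for genes with at least 20 Known, NIC or NNC reads in each library. Coding regions annotated as incomplete at either end were left out. Intervals (95%) and floors of 3 reads cover counting error only. Alternatives used DESeq2 1.42.0 size factors, total reads, a lowess trend on length, other filters and read classes, edgeR's exact test, and each library alone. The procedures were tested on simulated counts that had counting error only, so not under the scatter between these libraries. Python 3.11.15, scipy 1.17.1 and statsmodels 0.14.6 were used.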

Additional observations from a re-analysis of the deposited data

Results flagged for a closer look

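Unannotated models on the strand opposite to a member, which belong to no gene of the annotation and were not used in the comparisons, had more than 3 reads in a library in 2 cases. Opposite to Tomm34 there were 3 reads in replicate 1 and 4 in replicate 2, over 5 models, beside 10 and 12 reads of Tomm34 itself. Opposite to Timmdc1 there were 1 and 4 reads, over 3 models, beside 3 and 4 of the gene. In all, 9 members had such reads, 8 in replicate 1 and 15 in replicate 2. The source of these reads was not tested.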

How the results depend on the processing

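The count of members called between libraries was 1 and ranged from 0 to 4 over the alternatives. On total reads it was 4 of 30 (Tomm6, Timm23, Grpel1 and Samm50), against 1038 of all 8394 genes. With a trend on length it was 3 of 30, against 705 of 8394. Among genes with at least 50 reads it was 2 of 23 (Tomm6 and Timm23), against 983 of 3993. Without a filter it was 0 of 31, against 847 of 14451, with Tomm6 at an adjusted p of 0.0643 by the exact binomial test. It was 0, with 24 of all genes called, by edgeR's exact test, where the adjusted p of Tomm6 was 1.00. The dispersion of edgeR's test includes the difference under test, so its few calls follow from the setting itself. Log2 ratios near 0 changed sign with the scaling. On total reads Tomm20 and Timm17a, both at -0.01, were at 0.11. With the trend on length they were at 0.36 and 0.45, Timm8b turned from 0.16 to -0.23, Timm13 from 0.15 to -0.10, Tomm40 from 0.13 to -0.09 and the members' median from 0.13 to -0.03. Only Timm17a was called among these, and the cause was not tested. The members' summed level was 3208 CPM over Known models, whose total leaves out many reads of other genes, and 2012 to 2342 CPM for a single library. The median share of the leading isoform, 95.9%, was 87.3% over all models, 99.3% over Known models and 97.3% with at least 50 reads. Genes called for that share numbered 150 over all models and 5 over Known models, with 0 members in each. The share of member reads holding the coding region was 96.0% over Known, NIC and NNC models, which leave out the ISM and Genomic classes. In the same setting the mean share of Samm50 moved from 64.5% to 98.1% and that of Dnlz from 60.4% to 64.7%. The leading isoform of Dnlz, at a mean of 64.7%, took 60.4% over all models and 79.9% over Known models. Of the other values, 118 were counted as stable. Among these, log2 ratios kept their sign and side of the threshold, counts stayed within 1.5 times, and paralogue shares under other read classes stayed uncalled. By that rule the mean Tomm40l share beside Tomm40 was counted as stable. It was 20.2% (SD 3.48) in the main setting and 13.5% over Known models. The members' median log2 ratio was held against the SD over members. Other shares and levels moved by less than the SD between the libraries. The 118 include values of a single library, which always lie within that SD of the mean of both. Those values therefore show no stability. No paired analysis was possible because there is 1 group. Depth limits members with few reads, such as Timm8a1 and Mtx1, most.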
